A study of Saccharomyces cerevisiae with 25 samples.

Results

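The proteins of the mitochondrial ribosome of budding yeast are the subject here, as 67 of the 5656 genes measured in an expression study of the Ccr4-Not complex. A gene was taken in where its symbol on the array starts with MRPL, MRPS or RSM and a number, or with MRP and a number, and where a probe set is annotated to that gene alone. Of the 67 genes 65 have a uniform ribosomal protein name, and by it 41 have a bacterial counterpart and 24 have none. The genes fall into 38 of the large subunit and 28 of the small subunit, where RSM22, which has no uniform name, was put with the small subunit by its gene name. MRP8 also lacks a uniform name, is placed in neither subunit and is described separately. The genes lie on 14 chromosomes.

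The mitochondrial ribosome translates the few membrane proteins of the respiratory chain that are encoded in mitochondrial DNA. Nearly all of its own proteins are encoded in the nucleus, translated in the cytosol and imported. Ccr4-Not is a conserved complex in which Ccr4 and Caf1 are deadenylases, which shorten the poly(A) tail of an mRNA before its decay, while Not1 is the scaffold and Not4 is a ubiquitin ligase. In yeast the RNA-binding protein Puf3 binds many mRNAs for mitochondrial ribosomal proteins and is known to recruit this deadenylase to them. When glucose runs out, yeast turns from fermentation to respiration and the genes of the respiratory chain are derepressed, with the activator subunit Hap4 as a main regulator.

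The data were 25 one-colour Affymetrix arrays in 14 groups, each a strain in 1 of 2 conditions. Cells grown in glucose-rich medium were harvested while dividing exponentially, or at 30 min past the point of glucose depletion. Wild type was set beside null strains, in each of which the label names a single lost subunit, and the strain background is not given in the labels. Exponential-phase arrays numbered 2 each for wild type and for the caf1, ccr4, not2, not3 and caf130 null strains, and 1 each for the not4 and not5 null strains. Depletion arrays numbered 2 each for wild type and for the ccr4, not2, not4 and caf130 null strains, and 1 for the caf1 null strain. Nothing in the labels says that arrays of a group came from separate cultures, so p-values measure the spread between these arrays, which may be technical. The groups of 1 array have no replicate check of their own, and their tests borrow the spread of the other groups.

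Values are on a log2 scale, so that 1 unit is a 2-fold difference. An array gives a gene's share of the RNA, and the amount per cell was not measured. Genes were called at an adjusted p under 0.05 (limma on all 25 arrays, Benjamini-Hochberg over all 5656 genes), and the same 2 wild-type groups serve as control in many of the comparisons. In the arrays of 6 of the null strains the deleted gene read below every wild-type array. CAF130 was the exception, at 5.63 to 6.60 in the 4 arrays labelled caf130 and 5.30 to 5.76 in the 4 wild-type arrays, so these arrays are named by their label only. TRP1, a tryptophan synthesis gene often used as a strain marker, read 6.73 to 8.89 in the 7 caf1 and ccr4 arrays, 7.27 to 7.69 in the caf130-labelled depletion arrays and 3.59 to 5.52 in the caf130-labelled exponential arrays, against 2.09 to 3.14 in the 14 wild-type and not arrays. The caf1 and ccr4 strains thus differ from wild type in TRP1 as well as in the named subunit, and the part of that difference in any result was not tested. The arrays labelled caf130 differ in TRP1 from wild type and between their 2 conditions. Whether those 2 conditions hold the same strain was not tested.

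As a group the mitochondrial ribosomal protein genes had a small median change on glucose depletion in wild type and the greatest in the ccr4 strain. The group means of a member spanned a median of 1.96 over the 14 groups, close to the 2.01 of all genes and below the 3.54 of 40 respiratory chain and ATP synthase genes and the 3.25 of 80 cytosolic ribosomal protein genes. The ccr4 strain after depletion held the highest group mean for 34 members, the single caf1 depletion array for 14 and the not2 strain after depletion for 9. The not3 strain in exponential phase held the lowest group mean for 25 members. The matching shares of all genes are not given here, so these counts alone do not set the members apart from other genes. The replicate SD of a member had a median of 0.39, against 0.33 over all genes.

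**Figure D1:**
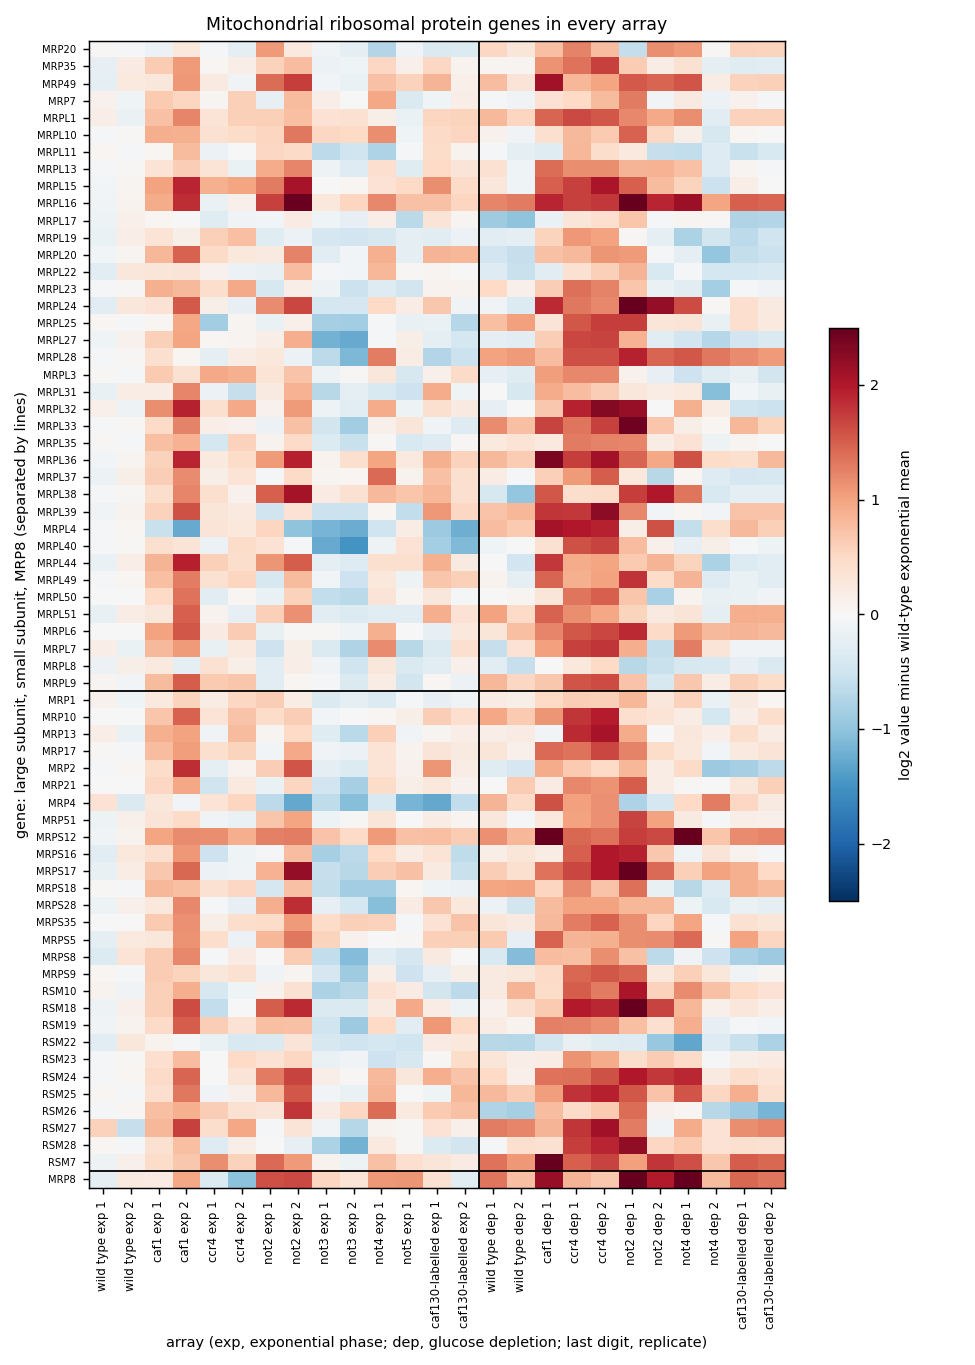
Log2 value of each of the 67 genes (rows) in each of the 25 arrays (columns), less that gene's mean in the 2 wild-type exponential arrays. The colour scale is limited to 2.5 either way, the vertical line parts exponential phase from glucose depletion, and both ccr4 depletion arrays are red in nearly every row.

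Members did not move as 1 block. Over the 14 group means the correlation of a pair of members had a median of 0.55, with 95.2% of 2211 pairs above 0. The same median was 0.86 among the respiratory chain genes and 0.90 among the cytosolic ribosomal protein genes. Pairs of 1 large and 1 small subunit gene gave 0.55, pairs within the large subunit 0.54 and pairs within the small subunit 0.59, so the subunit border did not show. All these values rest on the same arrays and are given as a description. MRP17 (protein bS6m) followed the median of the other members most closely, with r = 0.94, then MRP35 (bL35m) with 0.92 and RSM19 (uS19m) with 0.91. RSM22 with 0.22, MRP8 with 0.35 and MRP4 with 0.39 followed it least. RSM22 read 2.83 to 4.45 over the arrays and MRP35 2.51 to 4.52, all below the lower quartile of all gene values of 4.67. Whether compression near background affects their r or span was not tested.

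MRPL4 (uL29m) had the widest span of group means at 3.28, then MRP8 with 3.04, MRPL40 (uL24m) with 3.01, MRPL27 (mL41) with 2.91 and RSM18 (bS18m) with 2.88. The narrowest spans were those of MRP1 (mS43) with 0.94, MRPL8 (bL17m) with 1.01, RSM22 with 1.05, MRPL22 (uL22m) with 1.28 and MRPL10 (uL15m) with 1.30. Of the 67 members, 61 were called in 1 or more of 24 comparisons. MRP1, MRP7, MRPL11, MRPL22, MRPL31 and MRPS5 were called in none. MRP4, MRP8, MRP10 and MRPL17 were each called in 6. The matching counts over all genes are not given here, so these do not tell the members from other genes. The depletion response in the arrays labelled caf130 alone called 23.2% of all genes higher and 26.9% lower.

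In wild type, few mitochondrial ribosomal protein genes were called as changed on glucose depletion. The median change of the 67 members was 0.22, against 0.02 over all genes. Of the members 6 rose, where 20.3% of all genes did, and 1 fell, where 18.7% of all genes did. All 40 respiratory chain genes rose, with a median of 2.49, and 74 of 80 cytosolic ribosomal protein genes fell, with a median change of -2.01. The members therefore lay between the 2 groups, in an array set where much of the genome was called.

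The members that rose in wild type were MRPL16, RSM27, RSM7, MRPL28, MRPS12 and MRP10, by 1.27, 1.26, 1.22, 1.04, 0.99 and 0.80. RSM7, which encodes the small subunit protein uS7m, read 7.94 and 8.21 in the exponential arrays and 9.44 and 9.16 in the depletion arrays. MRPL28, for the large subunit protein mL40, read 5.66 and 5.74, then 6.71 and 6.76. Both depletion arrays lay above both exponential arrays for each of the 2 genes. The change was 1.22 with SE 0.31 for RSM7 (limma adjusted p = 0.00405, 0.00386 to 0.0486 over the alternatives) and 1.04 with SE 0.28 for MRPL28 (adjusted p = 0.00595, 0.00424 to 0.0462). MRPL17, for the mitochondrion-specific protein mL46, was the member that fell, from 6.07 and 6.32 to 5.30 and 5.19, a change of -0.95 with SE 0.27 (limma adjusted p = 0.00880, 0.00588 to 0.0781). With 1 array left out the count was 2 to 4 in place of 7, with 2 without depletion replicate 2, 3 without exponential replicate 2 and 4 without either replicate 1.

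In the ccr4 strain most of the set rose on depletion. Every one of the 67 estimates was positive, with a median of 1.12 against 0.22 over all genes. Here and below, the share of all genes with a positive estimate is not given beside such counts. The members also correlated with each other over the group means, so such counts are not separate agreements. By call 40 members rose, 59.7% of them, where 23.7% of all genes rose. No member fell, where 13.3% of all genes did. The 40 were 22 of the 38 large subunit genes, 17 of the 28 small subunit genes and MRP8. Median changes were 1.10 for both subunits, 1.14 for genes with a bacterial counterpart and 1.08 for those without. In the same strain 31 of 40 respiratory chain genes rose, with a median of 1.32, and 56 of 80 cytosolic ribosomal protein genes fell, with a median of -1.15.

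**Figure D2:**
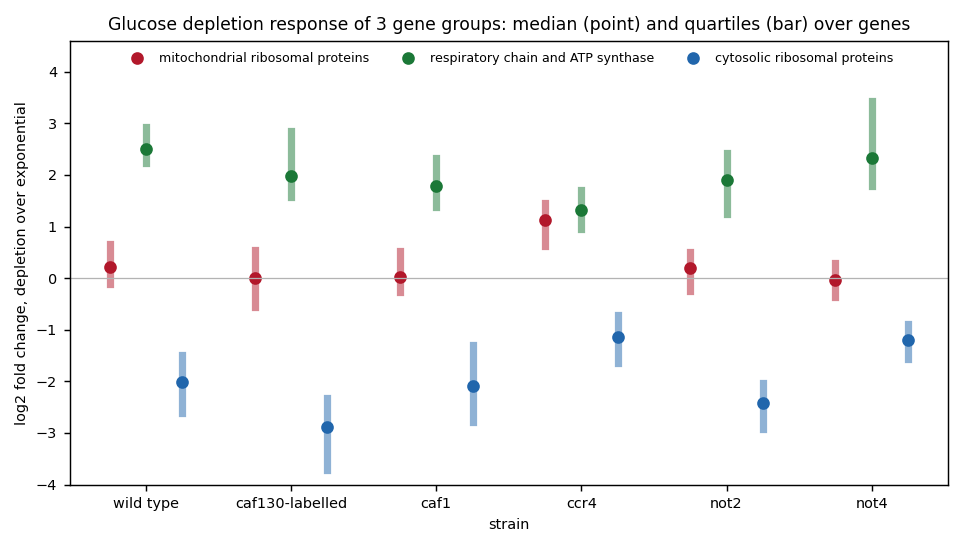
Change on glucose depletion (log2, depletion over exponential) in each of 6 strains, as the median over genes (point) with the quartiles (bar), for mitochondrial ribosomal, respiratory chain and cytosolic ribosomal protein genes. The mitochondrial ribosomal median is 1.12 in ccr4 and between -0.03 and 0.22 in the other 5 strains, and the caf1 depletion and not4 exponential groups are 1 array each.

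RSM18, for the small subunit protein bS18m, stood at 5.45 and 6.05 in ccr4 during exponential growth and rose to 8.06 and 7.97 upon depletion. Its change of 2.26 with SE 0.42 was the greatest of the members (limma adjusted p = 0.000445, 0.000416 to 0.0148 over the alternatives). MRPS16 (bS16m) read 6.77 and 7.17, then 8.78 and 9.29, a change of 2.06 with SE 0.40 (limma adjusted p = 0.000668). For both small subunit genes the 2 depletion arrays lay well above the exponential ones. MRPL25 (mL59) rose by 2.04, MRPS17 (uS17m) by 1.95 and RSM28 (mS46) by 1.89. Of the 40 calls 18 held in every setting tried, among them those of RSM18, MRPS16, MRPL25, MRPS17 and RSM28. The count was 20 to 32 with 1 array left out, with 20 without ccr4 depletion replicate 2, 21 without ccr4 exponential replicate 1 and 26 without ccr4 depletion replicate 1.

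The difference between the ccr4 and the wild-type response was tested directly. It had a median of 0.85 over the members, against 0.14 over all genes, and was positive for 62 of 67. It was called for 10 members, all with the greater rise in ccr4, which is 14.9% of them beside 11.6% of all genes. It was called lower for 0 members, beside 7.78% of all genes, and 21 members, or 31.3%, had an unadjusted p under 0.05, beside 35.3% of all genes. The share of members called was thus near that of all genes. The 10 were RSM18, MRPL27, MRPS16, MRPL7, RSM28, MRPL40, MRPL17, MRPS28, MRP13 and MRP35. The count fell to between 1 and 8 when 1 array was left out, with 1 without ccr4 depletion replicate 2 and 2 without either ccr4 exponential replicate 1 or wild-type depletion replicate 1, and of the 10 only MRPL27 was called in every setting. It was 6 without the arrays labelled caf130.

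MRPL27 encodes mL41, a large subunit protein with no bacterial counterpart by its uniform name. It read 6.82 and 7.03 in exponential wild type and 6.68 and 6.64 after depletion. In ccr4 it read 6.98 and 6.998 in exponential phase and 8.60 and 8.62 after depletion. Only the ccr4 depletion arrays stood apart among these 8. The responses were -0.27 in wild type and 1.62 in ccr4, and their difference was 1.89 with SE 0.46 (limma adjusted p = 0.00877, 0.00785 to 0.0396 over the alternatives). MRPL40, for the large subunit protein uL24m, gave a similar picture, with 6.60 and 6.66 in exponential wild type, 6.53 and 6.63 after depletion, 6.49 and 7.10 in exponential ccr4, and 8.23 and 8.31 in ccr4 after depletion. Its difference of responses was 1.53 with SE 0.41 (limma adjusted p = 0.0139, 0.0102 to 0.0845).

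**Figure D3:**
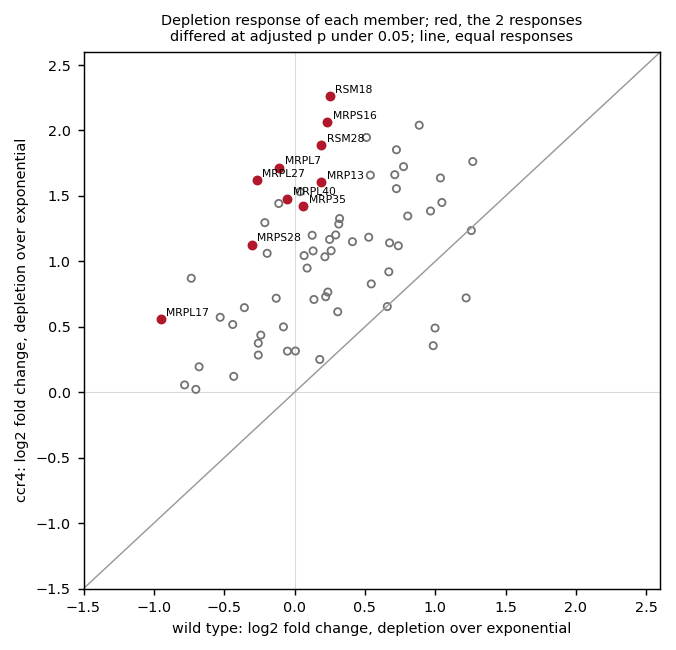
Change on glucose depletion (log2) of each of the 67 genes in wild type (x axis) and in the ccr4 strain (y axis), with the line of equal responses. The 10 red, labelled genes are those whose 2 responses differed at an adjusted p under 0.05, and 62 of the 67 genes lie above the line.

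Respiratory chain genes went the other way in this test. The difference of responses had a median of -1.13 over the 40 genes, and 16 were called lower in ccr4 while 0 were called higher. Among cytosolic ribosomal protein genes 17 of 80 were called higher and 0 lower in this test, with a median difference of 0.70. These 2 groups and the mitochondrial ribosomal genes were measured on the same 8 arrays. HAP4 read 7.89 and 7.63 in exponential wild type, 9.85 and 9.39 after depletion, 7.47 and 7.12 in exponential ccr4, and 8.15 and 7.88 in ccr4 after depletion. Its rise was 1.86 in wild type (SE 0.32), and its estimate in ccr4 was 0.72 (limma adjusted p = 0.0811). The direct test of the difference gave -1.14 with SE 0.45 and no call (limma adjusted p = 0.0763, 0.0744 to 0.248 over the alternatives). PUF3 read 2.06 to 2.90 over all 25 arrays, near the lowest readings of the arrays, so its level was not resolved. The part of either regulator in the members' values was not tested.

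In the other 4 strains with both conditions limma called no member's response as different from that of wild type. Over all genes the response was called higher and lower for 0.813% and 1.56% in caf1, 2.39% and 4.54% in not2, 1.79% and 2.39% in not4, and 0.0177% each way in the arrays labelled caf130. The members' own median responses were 0.02 in caf1, 0.19 in not2, -0.03 in not4 and 0.00 in the arrays labelled caf130. At an unadjusted p under 0.05 there were 5 such members in caf1, 5 in not2, 4 in not4 and 3 in the arrays labelled caf130, beside 18.2%, 23.9%, 19.5% and 10.47% of all genes. In caf1, 6 members rose on depletion, where 16.5% of all genes did, and 0 fell, where 13.9% did. These were MRPL4, RSM7, MRP8, MRPS12, MRP4 and MRP49. MRPL4 read 6.97 and 6.27 in exponential caf1 and 9.62 in the single depletion array, a change of 2.99 with SE 0.55 (limma adjusted p = 0.000430). In the arrays labelled caf130, 8 members rose and 8 fell, where 23.2% of all genes rose and 26.9% fell. The 2 sides of this comparison also differ in TRP1, as given above, and may not be the same strain. MRPL4 and MRPL28 rose the most there, both by 1.76, and RSM26 (mS42), MRPL20 (mL58) and MRP2 (uS14m) fell the most, with changes of -1.73, -1.41 and -1.39.

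In not2, 7 members rose on depletion, where 19.3% of all genes rose, and 0 fell, where 25.4% did. They were MRPL28, RSM28, MRPL33, MRPL6, RSM10, MRPL25 and MRPS9, and MRPL28 (1.63, SE 0.28) was the one called in every setting. In not4, MRP4 rose and MRPL10, MRPL20, MRPL37 and RSM26 fell, where 12.9% of all genes rose and 18.3% fell. MRPL37 (mL54) read 8.73 in the single exponential not4 array and 7.36 and 6.98 after depletion, a change of -1.56 with SE 0.39. Without not2 depletion replicate 1 the not2 count became 2 higher and 6 lower, and without not4 depletion replicate 2 the not4 count became 6 higher and 1 lower. The replicates of those 2 depletion groups stood apart in these genes and in others. Replicate 1 exceeded replicate 2 by a median of 0.75 over the members in not2 and of 0.51 in not4, in 57 and 56 of 67 members, while over all genes the medians were 0.10 and 0.00. Cytosolic ribosomal protein genes gave 0.73 in not2 and 0.37 in not4, and respiratory chain genes gave 0.53 in not2 and -0.004 in not4.

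Set against wild type after depletion, the ccr4 strain held higher levels of most mitochondrial ribosomal protein genes. The median difference was 1.06 against 0.06 over all genes. Of the members 41 were higher, or 61.2%, where 15.2% of all genes were higher, and 0 were lower, where 11.8% of all genes were lower. These were 24 of 38 large subunit genes and 17 of 28 small subunit genes, with medians of 1.06 in both. Genes with a bacterial counterpart gave 24 of 41 and a median of 1.04, and those without gave 17 of 24 and 1.13.

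MRPL32 encodes bL32m, a large subunit protein whose processing in the mitochondrion is known in yeast to be needed for ribosome assembly. It read 5.56 and 5.75 in wild type and 7.70 and 8.07 in ccr4, and its difference of 2.23 with SE 0.49 was the greatest of the members (limma adjusted p = 0.00253, 0.00224 to 0.0411 over the alternatives). MRPL27 read 6.68 and 6.64 in wild type against 8.60 and 8.62, a difference of 1.95 with SE 0.33 (limma adjusted p = 0.000314, 0.000294 to 0.00798). MRP13, for the small subunit protein mS44, read 4.51 and 4.55 against 6.19 and 6.39, a difference of 1.77 with SE 0.32 (limma adjusted p = 0.000659, 0.000651 to 0.0175). In each of these genes the arrays of the 2 strains were far apart and those of a strain close together. MRPL7 (uL5m) was higher by 1.85 and MRPL15 (mL57) by 1.79.

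The calls that held in every setting were those of MRP13, MRP35, MRPL15, MRPL17, MRPL19, MRPL27, MRPL3, MRPL32 and MRPL40, of which MRP13 belongs to the small subunit. The count was 11 without ccr4 replicate 2, 22 without ccr4 replicate 1, and 17 and 16 without 1 or the other wild-type array, and 0 members were lower in each. MRPL3 (mL44), the member that was also called in exponential ccr4, read 6.48 and 6.38 in wild type and 7.89 in both ccr4 arrays, a difference of 1.46 with SE 0.26 (limma adjusted p = 0.000500). MRPL28, which rose on depletion in wild type too, read 6.71 and 6.76 in wild type and 7.30 and 7.31 in ccr4. HAP4 differed by -1.61 in ccr4 (SE 0.32, limma adjusted p = 0.00127), and 7 of 40 respiratory chain genes were lower with a median of -0.50 and 0 were higher.

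**Figure D4:**
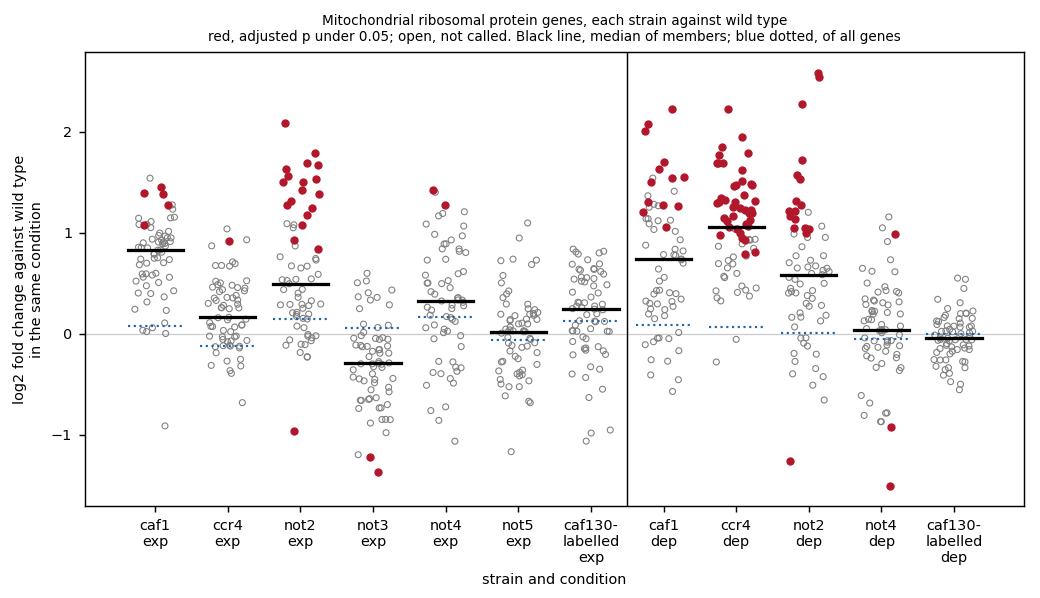
Log2 difference from wild type in the same condition for each of the 67 genes (points, spread sideways for view only), in 7 strains in exponential phase (left) and 5 after glucose depletion (right). The median of the genes (black line) is 1.06 in ccr4 after depletion, with 41 called genes in red, and -0.29 in not3 in exponential phase.

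In the caf1 strain after depletion 13 members were higher than in wild type and 0 were lower, where 8.03% and 5.36% of all genes were, with a median of 0.74 against 0.09. This group is 1 array, and 6 members were called when wild-type replicate 1 was left out and 0 when its replicate 2 was. The count was 5 without the arrays labelled caf130, which share in the estimate of spread. MRPL38 (uL14m), MRPL24 (bL28m), MRPL44 (mL53), MRPS12 (uS12m) and MRPL36 (bL31m) differed most, by 2.23, 2.08, 2.01, 1.70 and 1.63. MRPL38 read 8.24 in the caf1 array and 6.29 and 5.73 in wild type (SE 0.50, limma adjusted p = 0.00900, 0.00856 to 0.0922).

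In the not2 strain after depletion 16 members were higher, where 14% of all genes were, and 1 was lower, where 14% of all genes were. The median was 0.58 against 0.01. MRPL24, for the large subunit protein bL28m, read 8.62 and 8.25 in not2 and 5.97 and 5.72 in wild type, a difference of 2.59 with SE 0.43 (limma adjusted p = 0.000211, 0.000192 to 0.00584). MRPL38 read 8.42 and 8.69 against 6.29 and 5.73, a difference of 2.54 with SE 0.41 (limma adjusted p = 0.000139, 0.000095 to 0.00588). RSM18 read 9.42 and 7.77 against 6.17 and 6.47, and differed by 2.27. Both not2 arrays lay above both wild-type arrays in these 3 genes, and for RSM18 the 2 not2 arrays were themselves far apart. MRPS17 was higher by 1.72 and RSM24 (mS35) by 1.57. The count was 30 without not2 replicate 2, 10 without not2 replicate 1 (7 higher and 3 lower), 10 when wild-type replicate 1 was left out and 6 when its replicate 2 was, and MRP51, MRPL17, MRPL24, MRPL38 and RSM18 were called in every setting.

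MRP4, for the small subunit protein uS2m, was the lower one. It read 5.61 and 5.93 in not2 against 7.22 and 6.85 in wild type, a difference of -1.27 with SE 0.34 (limma adjusted p = 0.00952, 0.00781 to 0.0949). In exponential phase it read 5.72 and 5.10 in not2 against 6.75 and 6.01 in wild type, again with no overlap, and differed by -0.97 (limma adjusted p = 0.0484). By sign the gene thus went against the median of the members in this strain under both conditions. Neither of its calls held in every setting, and most other members were not called.

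After depletion not4 and the arrays labelled caf130 gave few calls against wild type. In not4 MRPL17 was higher by 0.99, where 5.92% of all genes were higher, and MRPS18 and MRP10 were lower, with differences of -1.51 and -0.93, where 6.22% of all genes were lower. The median was 0.04 against -0.06, and without not4 replicate 2 the count turned to 8 higher and 1 lower. In the arrays labelled caf130 limma called 0 members, with 0 at an unadjusted p under 0.05, where 0.0177% of all genes were called in either direction and 4.47% had such a p, and the median was -0.04.

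In exponential phase the not2 strain had the most calls. Of the members 18 were higher, or 26.9%, where 15.5% of all genes were, and 1, MRP4, was lower, where 7.07% of all genes were. The median was 0.50 against 0.15. MRPL16, for the large subunit protein uL16m, read 7.01 and 7.78 in not2 and 5.21 and 5.40 in wild type, a difference of 2.09 with SE 0.38 (limma adjusted p = 0.000817, 0.000687 to 0.0278). It was the one member called in every setting here. MRPL38 was higher by 1.79, RSM18 by 1.70, MRPL15 by 1.67 and MRP8 by 1.63. The count was 2 without not2 replicate 2, 3 and 11 without the first or the second wild-type array and 21 without not2 replicate 1. The not2 replicates stood apart in these genes, with a median of replicate 1 minus replicate 2 of -0.43 over the members and of -0.13 over all genes, and replicate 1 was the higher one in 10 of 67.

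In the caf1 strain nearly all members read above wild type in exponential phase, but few were called. The estimate was positive for 66 of 67 with a median of 0.83 against 0.07 over all genes, and MRPL4 with -0.91 was the exception. Called higher were 5 members, MRPL15, MRPL44, MRPL16, MRPL6 and MRP10, where 3.39% of all genes were, and 0 were lower, where 1.06% were. At an unadjusted p under 0.05 there were 36 members, or 53.7%, beside 19.3% of all genes. MRPL15 read 6.74 and 7.64 in caf1 and 5.66 and 5.81 in wild type, a difference of 1.45 with SE 0.39 (limma adjusted p = 0.0382, 0.0215 to 0.512). The median of replicate 1 minus replicate 2 was -0.49 over the members, and replicate 1 was the higher one in 14 of 67. With replicate 1 left out 11 members were called, and with replicate 2 or either wild-type array left out none was. None was called under quantile normalization or without the arrays labelled caf130 either.

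In exponential phase the ccr4 strain gave a single call. MRPL3 was higher by 0.92 (SE 0.26, limma adjusted p = 0.0336, 0.0285 to 0.205), with 7.64 and 7.57 in ccr4 against 6.72 and 6.65. Over all genes 4.1% were higher and 2.67% lower. The median was 0.16 against -0.12, and 6 members had an unadjusted p under 0.05, as had 23.6% of all genes. Leaving out any 1 of the 4 arrays, or the arrays labelled caf130, ended that call. Respiratory chain genes had a median of 0.66 in this comparison, with 8 of 40 higher.

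The not3 strain went the other way. The median was -0.29 against 0.05 over all genes, with 14 of 67 estimates above 0. MRPL40 read 5.37 and 5.15 in not3 against 6.60 and 6.66 in wild type, a difference of -1.37 with SE 0.29 (limma adjusted p = 0.0146, 0.0118 to 0.117). MRPL27 read 5.74 and 5.67 against 6.82 and 7.03, a difference of -1.22 with SE 0.33 (limma adjusted p = 0.0446, 0.0391 to 0.218). For both genes the replicates of a strain were close together and the strains apart, and both calls were lost when any 1 of the 4 arrays was left out. The count was 1 without the arrays labelled caf130. These were 2 lower and 0 higher members, where 0.725% of all genes were lower and 2.33% higher. MRPL27 and MRPL40 were thus called low in not3 in exponential phase and high in ccr4 after depletion.

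**Figure D5:**
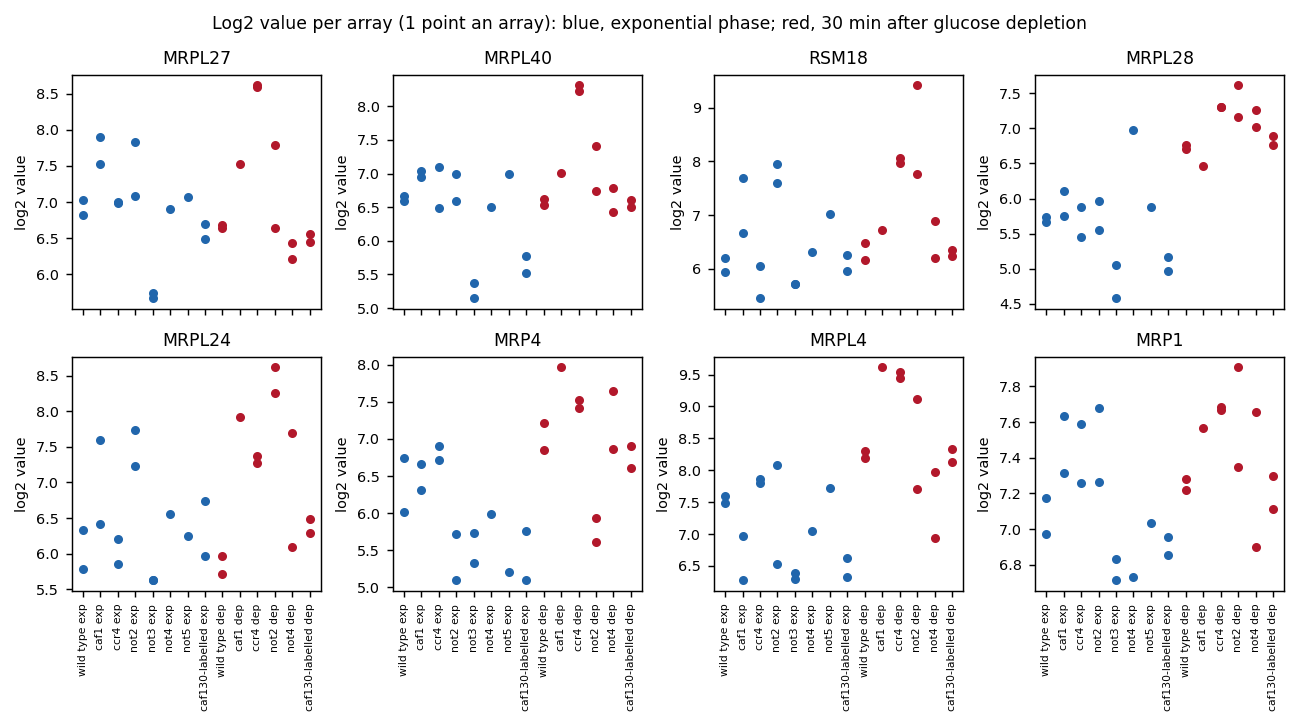
Log2 value of 8 genes in every array (1 point an array), by strain and condition, in exponential phase (blue) and 30 min after glucose depletion (red). MRPL27 and MRPL40 are lowest in the not3 arrays and highest in the ccr4 depletion arrays, MRPL24 is highest in not2 after depletion, and MRP1 varies least. Each panel has its own vertical scale.

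The single exponential arrays of not4 and not5 gave few calls. In not4 MRPL37 read 8.73 against 7.16 and 7.45 in wild type, and MRPL28 read 6.98 against 5.66 and 5.74. The differences were 1.42 with SE 0.39 (limma adjusted p = 0.0320) and 1.28 with SE 0.34 (limma adjusted p = 0.0291), where 4.79% of all genes were higher and 3.43% lower. The median was 0.32 against 0.17, and neither call held with 1 wild-type array or the arrays labelled caf130 left out, or under quantile normalization. In not5 limma called 0 members, with 2 at an unadjusted p under 0.05, where 3.71% of all genes were higher, 1.52% lower and 17.9% had such a p, and the median was 0.02. In the arrays labelled caf130 limma called 0 members, with 8 at an unadjusted p under 0.05, where 0.389% of all genes were higher, 0.283% lower and 14.9% had such a p, and the median was 0.24 against 0.13.

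The mean of the not2, not3, not4 and not5 strains was also compared, for exponential arrays, with that of the caf1 and ccr4 strains, which sets the not subunits against the deadenylases. Of the members 13 were lower in the not strains, or 19.4%, where 7.6% of all genes were, and MRP8 was higher, where 12.6% of all genes were. The median was -0.33 against 0.09. The not strains were mixed when each was set against wild type, by the medians given above. Those of not2 and not4 lay above wild type and above ccr4, that of not3 lay below wild type, and caf1 had the highest. Each strain had the same weight on its side, though not4 and not5 have 1 array each. The caf1 and not2 replicates also stood apart in these genes. MRP4 differed by -1.11 (SE 0.23, limma adjusted p = 0.00227, 0.00105 to 0.0155), MRPL23 (uL13m) by -1.08, MRPL9 (uL3m) by -1.05, RSM27 (mS33) by -1.03 and MRPL39 (bL33m) by -0.97. MRP4 read 6.31 to 6.91 in the 4 caf1 and ccr4 arrays and 5.10 to 5.99 in the 6 not arrays, with no overlap. MRPL23 read 7.76 to 8.28 in the former and 6.78 to 7.49 in the latter, again with no overlap. MRP4, MRPL9, MRPL19 and MRPL23 were called in every setting, and the count was 6 to 16 with 1 array left out, with 6 without ccr4 replicate 2 and 8 without caf1 replicate 2. The 2 sides also differ in TRP1, as given above.

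MRP8, whose protein is not known as a component of the ribosome, followed the median of the others with r = 0.35, above RSM22 and below MRP4. It was higher than wild type in not2, by 1.63 in exponential phase and 1.31 after depletion, and it rose on depletion in caf1, ccr4 and the arrays labelled caf130 by 1.61, 1.45 and 1.34. In wild type its estimate was 1.05 (limma adjusted p = 0.0573, 0.0474 to 0.309 over the alternatives). In ccr4 after depletion it read 9.69 and 9.51 against 10.17 and 9.60 in wild type, so the arrays overlapped. The 41 genes called higher there do not include it. MRPL44 is the member with more than 1 probe set. The second set read 3.32 to 5.55 over the arrays against 5.73 to 8.46 for the one used, and both were highest in caf1 exponential replicate 2.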

How the data were processed

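RNA extracted with acid phenol was hybridised to Affymetrix yeast arrays, per the labels' protocols. The authors deposited 1 normalized value per probe set and array; their software, normalization and log base were not stated in any source used here. Those deposited values, 1.36 to 13.9 with array medians of 5.20 to 5.37, were read as log2, and were not centred per gene. The array has 9275 probe sets, of which 6504 name 1 gene, 328 several and 2443 none; the brightest of a gene's sets was used (315 genes had several). The members, gene lists and tests were chosen with earlier results of these data known. Arrays were grouped by their titles. All 25 arrays entered 1 model of 14 group means (limma 3.58.1 in R 4.3.3, lmFit and eBayes with an intensity trend, 11 residual degrees of freedom), with no low-value filter in the main analysis and Benjamini-Hochberg adjustment over 5656 genes within each comparison. The fit was tested on simulated data with independent noise per gene. Those data lack the shared shifts between replicates seen here, so the test does not vouch for calls under such shifts. Alternatives were quantile normalization, a filter on dim genes, the mean of a gene's probe sets, the replicate number as a block, the arrays labelled caf130 left out, and each array left out in turn. Named members are all those called where these are 8 or fewer, otherwise the 5 greatest rises and falls, the widest and narrowest spans, the most often called, MRP8, and HAP4 and PUF3; levels of different probe sets were not ranked against each other. Some further members are named for completeness of a count or because their calls held in every setting, chosen after their values were seen. Subunit classes come from uniform names in RefSeq synonyms, found for 65 of 67. Promoter motifs were not analysed here. Intervals of precision rest on the number of arrays alone.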

Additional observations from a re-analysis of the deposited data

Results flagged for a closer look

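The glucose depletion response differed between the ccr4 strain and wild type in the interaction test (limma, Benjamini-Hochberg over 5656 genes) for 10 mitochondrial ribosomal protein genes, each with the greater rise in ccr4. The differences of the 2 responses, on the log2 scale, were 2.01 for RSM18, 1.89 for MRPL27, 1.83 for MRPS16, 1.82 for MRPL7 and 1.70 for RSM28. They were 1.53 for MRPL40, 1.51 for MRPL17, 1.43 for MRPS28, 1.41 for MRP13 and 1.36 for MRP35. These are 14.9% of the members, near the 11.6% of all genes that were called higher in this test. With 1 array left out the count was 1 to 8, and of the 10 only MRPL27 was called in every setting. TRP1 also differs between the strains.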

How the results depend on the processing

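Over quantile normalization, the dim filter, the mean of probe sets, the replicate block and the set without the arrays labelled caf130, 97 of 108 counts of called members stayed within 1.5 times and 11 did not. The caf1 exponential count of 5 became 0 under quantile normalization, 0 with the replicate block and 0 without the arrays labelled caf130. Without those arrays ccr4 exponential gave 0, not3 exponential 1, not4 exponential 0, caf1 depletion 5 and the ccr4 difference of responses 6. Quantile normalization gave 0 for not4 exponential and 1 for the not2 difference of responses, and the replicate block gave 1 for not3 exponential.

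With 1 array left out, exponential counts against wild type ranged over 0 to 11 in caf1, 2 to 21 in not2, and were 0 in ccr4, not3, not4, not5 and the arrays labelled caf130. Depletion counts were 0 to 6 in caf1, 11 to 22 in ccr4, 6 to 30 in not2, 0 to 9 in not4 and 0 in the arrays labelled caf130. Responses gave 2 to 4 in wild type, 4 to 7 in caf1, 7 to 10 in the arrays labelled caf130, 20 to 32 in ccr4, 6 to 21 in not2 and 6 to 7 in not4. Differences of responses gave 1 to 8 in ccr4, 0 to 7 in not2 and 0 to 2 in not4, and 0 in caf1 and the arrays labelled caf130. The not strains against caf1 and ccr4 gave 6 to 16. The balance of calls reversed in not4 depletion without not4 replicate 2 (9 calls), in the not2 response without not2 depletion replicate 1 (8 calls) and in the not4 response without not4 depletion replicate 2 (7 calls). The cause was not tested.

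Of 88 named member calls 29 held under every setting and none changed sign. Leaving out 1 array ended 59, quantile normalization 11, the replicate block 11, the set without the caf130 label 18, the mean of probe sets 1 and the dim filter 0. The replicate numbers showed no general pairing of the arrays. Over 55 pairs of groups the correlation of deviations ran from -0.55 to 0.47, with a median of -0.016, and 14 exceeded 0.1. Pairing among some of the groups was not tested further. With the block, ccr4 depletion gave 38 calls, the ccr4 response 40, the ccr4 difference of responses 9 and not2 exponential 18. No block value could be had for comparisons with a group of 1 array or for the not strains together. Groups of 1 or 2 arrays limit all counts, and members with a mean below the lower quartile of all gene values (8 of 67) may be compressed near background.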

Other observations

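Genes of the mitochondrial translation system outside the naming rule were read from lists on the same arrays. Of 14 mitochondrial ribosomal protein genes with other names, 8 were higher and 0 lower in ccr4 than in wild type after depletion, with a median of 0.86. MHR1, for a large subunit protein that also acts in mitochondrial DNA recombination, read 8.70 and 8.95 in ccr4 and 7.21 and 7.37 in wild type, a difference of 1.53 with SE 0.31 (limma adjusted p = 0.00153, up to 0.0332 over the alternatives). SWS2 was higher by 1.31 and IMG2 by 1.30. VAR1, the ribosomal protein encoded in mitochondrial DNA, read 2.70 and 2.71 in ccr4 and 3.03 and 2.39 in wild type, and the arrays overlapped. In exponential phase VAR1 read 4.99 and 4.58 in ccr4 and 3.89 and 4.04 in wild type, and it fell on depletion in both strains, with changes of -2.08 and -1.26. The depletion readings of VAR1 lay near the lowest readings of the arrays, so the size of either fall was not resolved. The highest VAR1 reading was 6.06, in the single not5 array.

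Other parts of the system had fewer calls in ccr4 after depletion. Of 29 translation factors and activators 4 were higher and 1 lower, with a median of 0.26, and among them RRF1, the ribosome recycling factor, was higher by 1.25, RMD9 by 1.21 and CBP3 by 1.11. Of 8 ribosome assembly genes 2 were higher and 0 lower, MSS116, an RNA helicase, by 1.32 and MAM33 by 1.01. Of 17 tRNA synthetase and related genes 1 was higher and 1 lower, with a median of 0.52. On depletion within ccr4, 5 of the 29 factors rose and 1 fell, 4 of the 8 assembly genes rose and 4 of the 17 synthetase genes rose. Over all genes 15.2% were higher and 11.8% lower in the first comparison, and 23.7% rose and 13.3% fell in the second.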
